A study of Homo sapiens with 7 samples.

Results

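Chromatin loops spanning 1 Mb or more were studied in HEC-1-B, a human uterine (endometrial) adenocarcinoma cell line, and in lines made from it. A loop is a pair of places on 1 chromosome, its anchors, whose joined fragments were counted in HiChIP, an assay that ligates DNA ends lying close together in fixed nuclei and then enriches the joined fragments with an antibody. Members were chosen by span alone: every loop in any of the 7 loop lists whose anchor midpoints lay 1000000 bp or more apart. There were 8657 such very long loops among 135475 loops in all. The next shorter class, loops of 500 kb to 1 Mb, held 17043 loops and served as the closest comparison. The shortest member spanned 1000.004 kb (chr12:51476489-51478222 to chr12:52476783-52477935, count 2), and the longest loop left out spanned 999.981 kb (chr17:45907935-45909656 to chr17:46907674-46909879, count 2). Both were listed after 24 h of auxin. Coordinates are on hg19, the build named in the submitters' processing notes.

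Cohesin, a ring-shaped complex that contains RAD21, is known to draw chromatin into growing loops, and CTCF, a zinc-finger protein, halts it where it is bound in the facing orientation. CTCF loops therefore commonly frame contact domains, and a loop that passes over many CTCF sites is less common under that model. ZNF143 is another zinc-finger protein, known to bind promoters and to be found at a part of the anchors of CTCF and cohesin loops. Contacts between distant active regions or between clusters of similar genes can also span megabases without a CTCF stop at either end.

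The study used 7 groups with 1 library each. Unmodified wild-type cells were profiled with antibodies against ZNF143, CTCF and RAD21. Cells with ZNF143 deleted (ZNF143KO) were profiled for CTCF and RAD21. CTCF-AID cells, in which CTCF carries an auxin-inducible degron and which express TiR1, the plant receptor that couples auxin to protein breakdown, were profiled for ZNF143 after 0 h and after 24 h of auxin. No label says how many clones stand behind the deleted or the tagged line. Neither removal was checked from the lists, because no ZNF143 list of deleted cells and no CTCF list of CTCF-AID cells was analysed here. With 1 library per group there is no replicate error and no test across replicates. Every bracket below is a 95% interval for counting error in these libraries, and it is too narrow, because loops that share an anchor and read pairs that are copies of 1 molecule are not independent.

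3 properties of the lists bear on every value. Total counts over listed loops ran from 33460 to 143119 and are not library depths, which are unknown, and the lowest listed count was 2. A loop said below to be lost or not listed can therefore still have had 1 count, or had no called anchor. The lists of wild-type ZNF143 and of both deleted-cell libraries came with 7 tab-separated columns and the other 4 with 8 space-separated columns, so the layout changed with the genotype in both ZNF143-deletion comparisons and the 2 cannot be told apart. Counts in the CTCF-AID lists were mostly even. Among very long loops, the 0 h list held 3751 with a count of 2, 93 with a count of 3 and 257 with a count of 4, and the 24 h list held 2483, 88 and 308. Wild-type ZNF143 held 250, 41 and 12. The scale of the CTCF-AID counts is therefore not set against that of the other lists.

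Very long loops were a small part of the CTCF and RAD21 lists and a much larger part of the CTCF-AID ZNF143 lists. In wild-type cells they numbered 381 of 19313 CTCF loops (1.97%, 1.78 to 2.18), 365 of 16788 RAD21 loops (2.17%, 1.96 to 2.41) and 314 of 11981 ZNF143 loops (2.62%, 2.34 to 2.92). In ZNF143-deleted cells they numbered 205 of 15597 CTCF loops (1.31%, 1.14 to 1.51) and 145 of 10804 RAD21 loops (1.34%, 1.13 to 1.58). In CTCF-AID cells they numbered 4206 of 40405 ZNF143 loops at 0 h (10.4%, 10.1 to 10.7) and 3041 of 20587 at 24 h (14.8%, 14.3 to 15.3). The 3 wild-type shares thus lay within 1 percentage point of each other, the 2 deleted-cell shares lay below all 3, and the CTCF-AID shares lay above all 5. With the CTCF-AID counts divided by 2, in view of their mostly even values, the shares there were 3.44% at 0 h and 6.20% at 24 h. This division keeps the loops with a deposited count of 4 or more. From wild-type to deleted cells the CTCF share differed by -0.658 points (-0.924 to -0.391) and the RAD21 share by -0.832 points (-1.14 to -0.517). From 0 h to 24 h of auxin it differed by 4.36 points (3.80 to 4.93), and from wild-type to untreated CTCF-AID cells, with no protein removed, by 7.79 points (7.37 to 8.19).

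**Figure D1:**
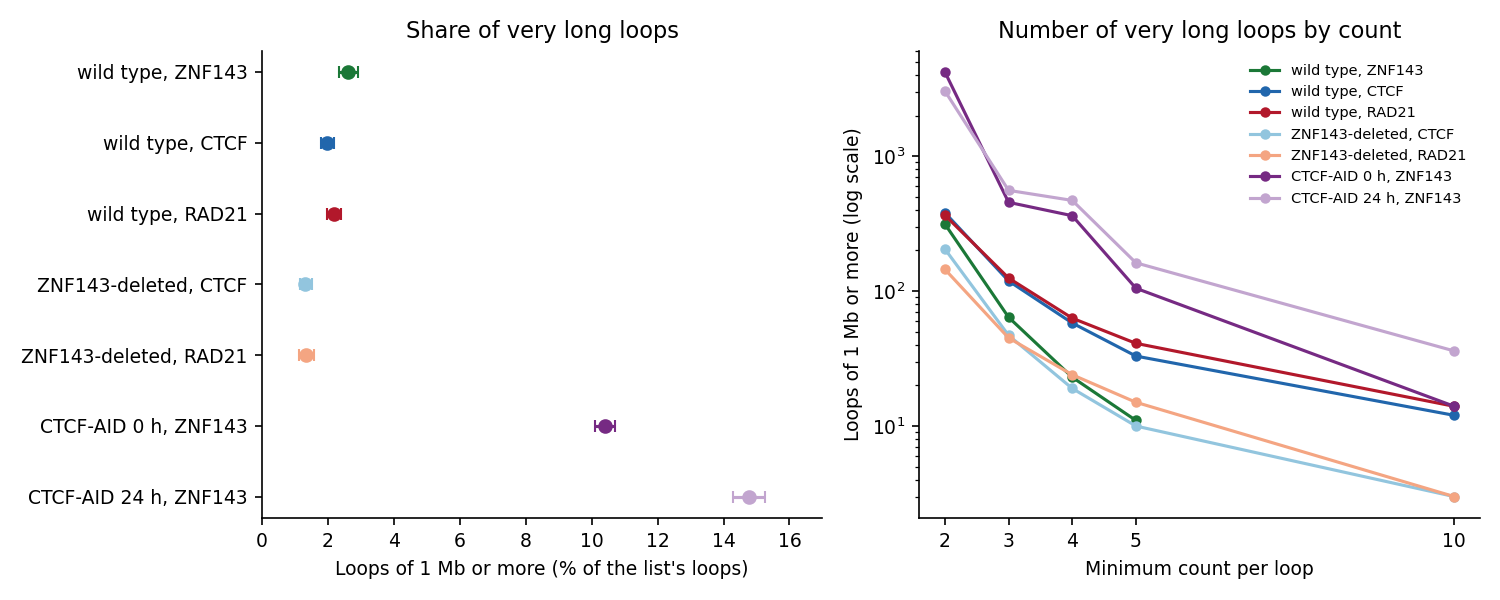
Left, loops of 1 Mb or more as a percentage of each list's loops, with exact 95% intervals. Right, the number of loops of 1 Mb or more (log axis) left at rising minimum counts per loop, where wild-type ZNF143 had no loop at a count of 10. The CTCF-AID lists sit at 10.4% and 14.8% against 1.31% to 2.62% elsewhere, and the order of 0 h and 24 h turns between minimum counts of 2 and 3.

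Most very long loops rested on the lowest listed count. A count of 2 was held by 79.6% of those in wild-type ZNF143, 68.8% in wild-type CTCF, 65.8% in wild-type RAD21, 77.1% and 69.0% in deleted-cell CTCF and RAD21, and 89.2% and 81.7% at 0 h and 24 h. Among loops under 1 Mb the same shares were 50.9%, 49.8%, 48.0%, 62.4%, 60.6%, 66.7% and 55.0%. The very long loops were thus the weaker class in each of the 7 lists. With a count of 10 or more there were 12 for wild-type CTCF, 14 for wild-type RAD21, 3 each for the deleted-cell lists, 14 at 0 h and 36 at 24 h, and 0 for wild-type ZNF143, whose highest count was 8. Median spans were 1.21 to 1.24 Mb in the 5 lists from wild-type and deleted cells and 1.36 and 1.37 Mb in the CTCF-AID lists. All lists ended at 2 Mb, so loops beyond that length are not seen.

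The chromosomes that held the very long loops differed between the ZNF143 lists and the CTCF and RAD21 lists. Chromosome 19, a gene-dense chromosome known for clusters of KRAB zinc-finger genes, held 114 of the 314 loops of wild-type ZNF143 (36.3%), 965 of the 4206 at 0 h (22.9%) and 1007 of the 3041 at 24 h (33.1%). It held 24.6%, 19.7% and 28.5% of the loops of every length in these lists. The CTCF and RAD21 lists placed 6 and 5 very long loops there in wild-type cells and 8 and 2 in deleted cells. In those 4 lists chromosome 3 led or shared the lead, with 45 of 381 for wild-type CTCF (11.8%), 36 of 365 for wild-type RAD21 (9.86%, equal with chromosome 2), 24 of 205 for deleted-cell CTCF (11.7%) and 19 of 145 for deleted-cell RAD21 (13.1%). It held 8.93%, 9.20%, 8.53% and 9.83% of the loops of every length in these lists, so the wild-type RAD21 share lay close to that of all loops. The 3 fullest chromosomes held 28.8% to 32.4% of the very long loops in the 4 CTCF and RAD21 lists, against 51.9%, 39.9% and 50.4% in the ZNF143 lists. Within chromosome 19 itself, very long loops made up 3.86% of the wild-type ZNF143 loops, 12.1% at 0 h and 17.1% at 24 h, and 0.369% to 0.912% of the loops in the CTCF and RAD21 lists. No very long loop was listed on chromosome Y.

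**Figure D2:**
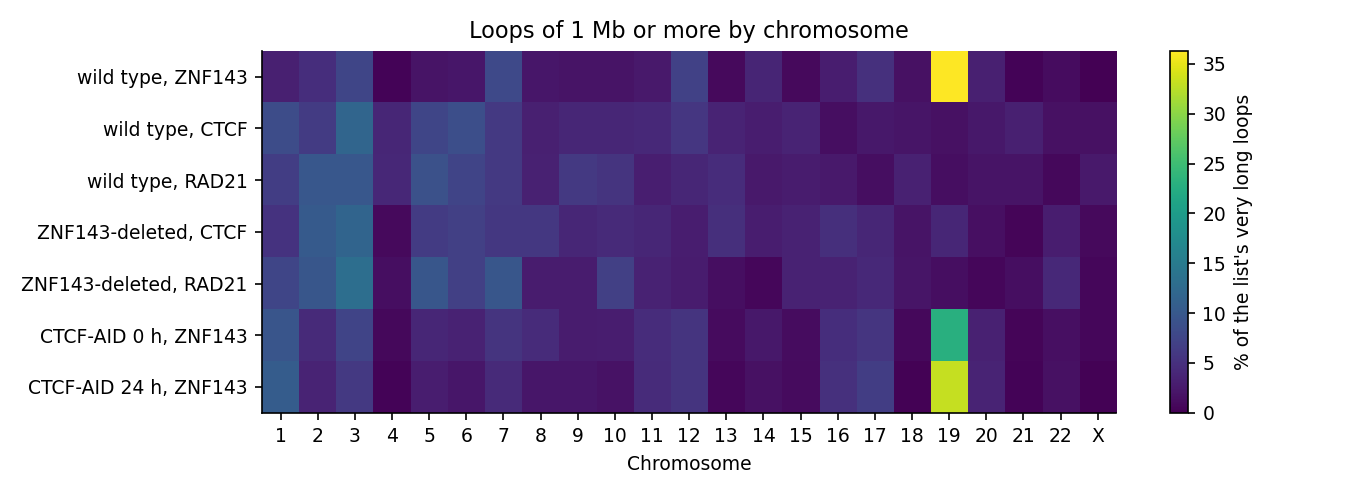
Share of each list's loops of 1 Mb or more that lies on each chromosome, as a percentage (colour scale), 1 row per list. Chromosome 19 stands out in the 3 ZNF143 rows, at 36.3%, 22.9% and 33.1%, while the CTCF and RAD21 rows are spread more evenly with their highest shares on chromosomes 2 and 3.

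On the long arm of chromosome 19 the loops of the CTCF-AID lists ran into 1 unbroken overlapping stretch. At 0 h it reached from 32830093 to 59093259 with 730 very long loops, and at 24 h from 32835929 to 59088201 with 821. In wild-type ZNF143 the fullest stretch was chr19:52740049-59088201, with 38. The fullest stretches of the CTCF and RAD21 lists held 7 to 9 very long loops, all on chromosome 3.

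Anchors were shared among very long loops more in the ZNF143 lists than in the others. An anchor shared with at least 1 further very long loop of its own list was held by 62.7% of them in wild-type ZNF143 (57.1 to 68.1), 40.2% in wild-type CTCF (35.2 to 45.3), 42.5% in wild-type RAD21 (37.3 to 47.7), 20.5% in deleted-cell CTCF (15.2 to 26.7), 22.8% in deleted-cell RAD21 (16.2 to 30.5), 73.8% at 0 h (72.4 to 75.1) and 84.4% at 24 h (83.1 to 85.7). Among loops of 500 kb to 1 Mb the shares were higher in each list and in the same order, at 77.5%, 67.5%, 68.5%, 42.8%, 44.5%, 81.2% and 87.7%, so this order was not particular to the very long loops. Sharing also rises with the number of loops in a list, which was not equalised. Most anchors nevertheless carried 1 very long loop, from 66.8% of the 3272 anchors at 24 h to 94.8% of the 269 in deleted-cell RAD21. The highest number at 1 anchor was 14 in wild-type ZNF143, 6 and 7 in wild-type CTCF and RAD21, 6 and 5 in the deleted-cell lists, 28 at 0 h and 31 at 24 h.

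The anchor that led all 4 CTCF and RAD21 lists was the same, chr3:187455731-187460793, a wild-type CTCF anchor. It carried 6 very long loops of its 13 loops in wild-type CTCF (summed count 110), 7 of 17 in wild-type RAD21 (113) and 6 of 11 in deleted-cell CTCF (42). Within 5 kb of it, deleted-cell RAD21 listed 6 of 14 (40), wild-type ZNF143 2 of 2 (6), the 0 h list 4 of 6 (24) and the 24 h list 0 of 3. All its very long partners lay to the right, between 1.01 and 1.53 Mb away. The strongest, chr3:188671587-188675543 at 1.22 Mb, had counts of 4 in wild-type ZNF143, 54 in wild-type CTCF, 53 in wild-type RAD21, 19 in deleted-cell CTCF, 23 in deleted-cell RAD21 and 16 at 0 h, and it was not listed at 24 h. It was the highest-count member of wild-type CTCF, wild-type RAD21 and deleted-cell RAD21, and the strongest of the 0 h loops lost at 24 h. A neighbouring partner, chr3:188664381-188667490, had 17 and 26 counts in wild-type CTCF and RAD21 and 12 and 7 in deleted cells. The partner at chr3:188949621-188952824, 1.49 Mb away, had 18 and 15 in wild-type cells and 3 and 4 in deleted cells. These 3 partners were thus listed in both genotypes, with lower counts in the deleted-cell lists, whose total counts were also lower (46220 against 80726 for CTCF, 33460 against 74410 for RAD21). Others differed: the partner at chr3:188758506-188760137 had 13 and 10 counts in wild-type CTCF and RAD21, 2 in deleted-cell CTCF and no listing in deleted-cell RAD21, and the CTCF partner 1.53 Mb away had 4 counts in both genotypes.

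The leading anchors of the ZNF143 lists lay on chromosome 19, and none of them led a CTCF or RAD21 list. In wild-type cells the leader was chr19:56651574-56654677, with 14 very long loops among 44, a summed count of 33 and a highest count of 4. The same anchor carried 24 of 72 at 0 h (summed count 105, highest 12) and 27 of 68 at 24 h (151, highest 31), and 0 loops of any length in the 4 CTCF and RAD21 lists. Of its 14 wild-type very long loops, 9 were found in both CTCF-AID lists, and of its 24 at 0 h, 19 were found at 24 h. Its strongest member, to chr19:57751194-57753089 at 1.10 Mb, had a count of 7 at 0 h and 31 at 24 h, the highest count of any very long loop at 24 h. The 0 h leader was chr19:47353490-47355208 with 28 very long loops. At 24 h the leader was chr19:42746154-42749865 with 31, where 22 were listed at 0 h and 2 in wild-type ZNF143. Both of these lay at wild-type CTCF anchors.

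Very long loops need not stand apart from the shorter ones. A chain of shorter loops of the same list joined the 2 anchors of 45.2% of the very long loops in wild-type ZNF143, 23.9% in wild-type CTCF, 21.4% in wild-type RAD21, 6.34% and 6.90% in deleted-cell CTCF and RAD21, 62.8% at 0 h and 69.1% at 24 h. Chains also become likelier as a list holds more loops, which was not equalised. Loops with neither anchor in any shorter loop made up 5.10%, 7.87%, 9.04%, 22.4%, 32.4%, 4.07% and 2.24% in the same order of lists. In deleted-cell RAD21, 54.6% of the anchors of very long loops had no loop under 1 Mb, against 35.2% in wild-type RAD21.

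The number of wild-type CTCF anchors lying whole between the inner ends of a loop was counted as skipped. Very long loops of the CTCF and RAD21 lists skipped a median of 5 (interquartile range 2 to 9) in wild-type CTCF, 4 (2 to 8) in wild-type RAD21, 6 (3 to 13) in deleted-cell CTCF and 5 (3 to 11) in deleted-cell RAD21. Those of the ZNF143 lists skipped 11 (5 to 22) in wild-type cells, 14 (7 to 26) at 0 h and 19 (11 to 30) at 24 h. Loops that skipped none were listed in all 7 groups, as 30 of 381 in wild-type CTCF (7.87%), 42 of 365 in wild-type RAD21 (11.5%), 13 and 15 in deleted-cell CTCF and RAD21 (6.34% and 10.3%), 3 in wild-type ZNF143, 116 at 0 h (2.76%) and 33 at 24 h (1.09%). For wild-type CTCF the skipped anchors come from the same list as the loops, so its values are not independent of the loops themselves.

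Chromosomes differ in CTCF anchor density, from 2.03 per Mb on X and 2.17 on chromosome 4 to 14.4 on chromosome 19, so skipped anchors per Mb were divided by the density of the loop's own chromosome. That density is the number of wild-type CTCF anchors over the stretch from the chromosome's first to its last. It includes stretches without anchors, so a value of 1 is a reference and not a neutral level. Relative to this density, the median was 0.680 in wild-type CTCF, 0.569 in wild-type RAD21, 0.859 and 0.754 in deleted-cell CTCF and RAD21, 1.17 in wild-type ZNF143, 1.37 at 0 h and 1.62 at 24 h. By the median and this measure, very long CTCF and RAD21 loops thus crossed stretches poorer in CTCF anchors than their chromosome, and very long ZNF143 loops crossed richer ones. The direction in deleted cells depended on the count: for loops with a count of 4 or more the relative median was 1.17 for the 19 of CTCF and 1.07 for the 24 of RAD21, against 0.634 and 0.605 in wild-type cells. At a count of 5 or more it was 1.30 for the 10 of CTCF and 0.797 for the 15 of RAD21. For loops of 500 kb to 1 Mb the medians were 1.09, 0.878, 1.06, 0.875, 1.38, 1.46 and 1.60 in the same order. The share of loops over anchor-poor stretches was larger among the very long than in that class by 17.5 points in wild-type CTCF (12.1 to 22.7) and 15.1 in wild-type RAD21 (9.61 to 20.2). It was larger by 9.27 in deleted-cell CTCF (1.73 to 16.6), by 9.43 in wild-type ZNF143 (3.27 to 15.6) and by 7.69 in deleted-cell RAD21, where the interval held 0 (-1.12 to 15.9). At 0 h and 24 h the differences were 1.39 (-0.432 to 3.22) and 0.385 (-1.71 to 2.50), and both intervals held 0. Without chromosome 19, a choice made after seeing the data, the relative medians of the ZNF143 lists were 1.17, 1.44 and 1.78.

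**Figure D3:**
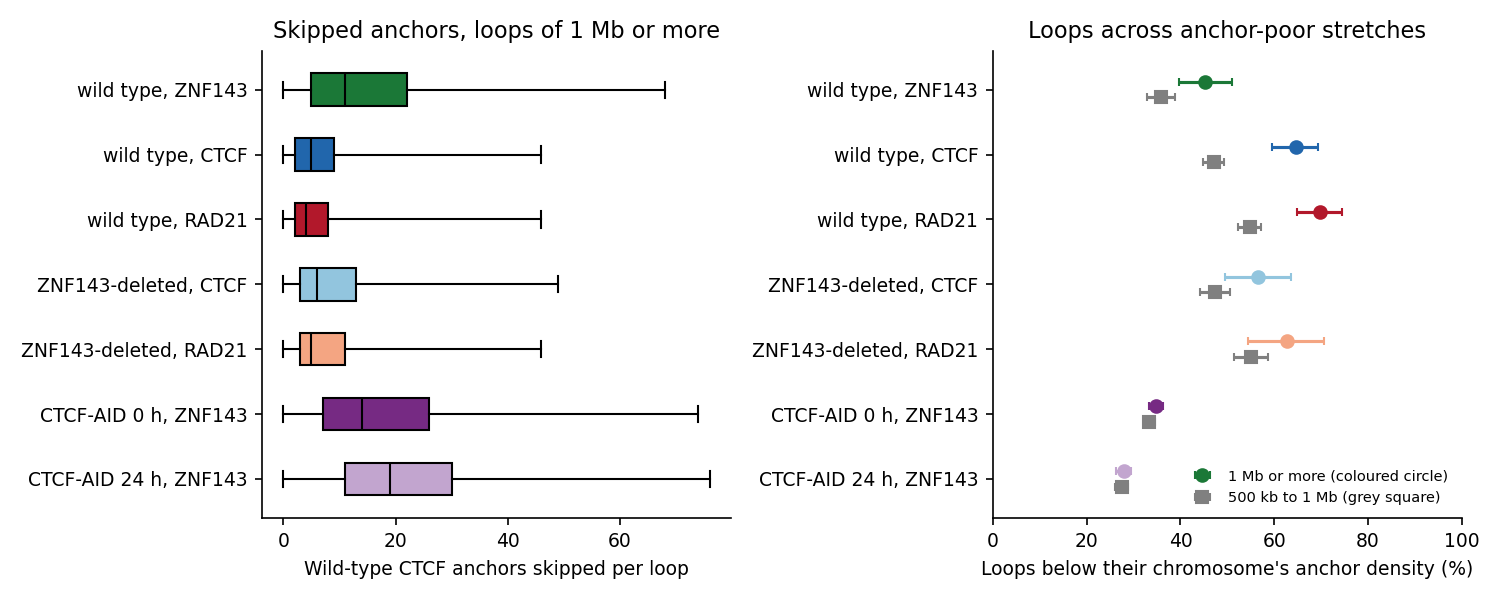
Left, wild-type CTCF anchors skipped per loop of 1 Mb or more in each list, as median (line), quartiles (box) and lowest to highest (whiskers). Right, the percentage of loops over stretches with fewer CTCF anchors per Mb than their chromosome, for loops of 1 Mb or more (circles) and of 500 kb to 1 Mb (grey squares), with exact 95% intervals. Circles lie to the right of squares in the 7 lists, and the 2 intervals are apart in the 3 wild-type lists and overlap in the other 4.

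Well-supported wild-type ZNF143 loops did not share the high median of their list. At a count of 4 or more, 23 very long loops skipped a median of 5 anchors, at 0.508 of their chromosome's density, against 12 anchors and 1.22 for the 250 loops with a count of 2. Within the 24 h list, the 470 loops with a count of 4 or more skipped a median of 17, at 1.49 of their chromosome's density, against 19 and 1.63 for those with a count of 2. Within the 0 h list the 362 with a count of 4 or more skipped 9.5, at 1.02, against 15 and 1.42. A count of 4 in these 2 lists is not taken as the same support as in wild-type ZNF143.

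The extremes show the range within the class. The loop that skipped the most anchors joined chr19:48209905-48211328 to chr19:50162278-50164082 at 24 h and passed over 76, and those of 0 h (chr19:48246420-48249503 to chr19:50144423-50146535, 74 anchors) and wild-type ZNF143 (chr19:48671561-48676010 to chr19:50527541-50529864, 68 anchors) lay in the same stretch. All 3 had a count of 2 and none was listed in a second library. The most-skipping loop of wild-type CTCF, chr7:99575671-99578179 to chr7:100933258-100934546, passed over 46 anchors and was better supported, with counts of 8 and 4 in wild-type CTCF and RAD21 and 6 and 3 in deleted cells. At the other end, chr1:105322716-105324762 to chr1:106335722-106336950 spanned 1.01 Mb and skipped 0, with a count of 11 in wild-type RAD21. It matched a wild-type CTCF loop with a count of 8 and a deleted-cell CTCF loop with 2, and was not listed in deleted-cell RAD21. On chromosome 6, chr6:14210577-14213427 to chr6:15244894-15246761 skipped 0 and had counts of 10 at 0 h and 6 at 24 h. The longest members reached 2.00 Mb, at chr9:35079269-35080830 to chr9:37078569-37080989 (0 h) and chr2:163695950-163698872 to chr2:165695903-165698788 (24 h), each with a count of 2.

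Very long loops had both ends at wild-type CTCF anchors less often than loops of 500 kb to 1 Mb, by intervals that excluded 0 in 5 of the 6 lists compared. Both ends lay within 5 kb of such an anchor in 58.1% of the very long loops of wild-type RAD21, 55.6% of deleted-cell CTCF and 53.1% of deleted-cell RAD21, against 70.0%, 64.6% and 65.7% in the shorter class. The differences were -11.9 points (-17.5 to -6.48), -9.03 points (-16.5 to -1.72) and -12.6 points (-21.3 to -3.99). The ZNF143 lists had lower shares at both lengths, with 22.3% against 27.7% in wild-type cells (-5.45 points, -10.5 to 0.122, an interval that holds 0), 24.9% against 28.2% at 0 h (-3.26 points, -4.94 to -1.56) and 18.3% against 20.2% at 24 h (-1.93 points, -3.77 to -0.0694). Loops with neither end at a wild-type CTCF anchor made up 14.1% of the very long deleted-cell CTCF loops against 5.26% in the shorter class (8.89 points, 4.48 to 14.5), and 17.2% against 6.03% in deleted-cell RAD21 (11.2 points, 5.60 to 18.3). The same difference was 3.81 points in wild-type RAD21 (1.12 to 7.25) and 1.96 points at 0 h (0.274 to 3.67). It was 1.50 points in wild-type ZNF143 (-3.85 to 7.26) and -0.926 points at 24 h (-3.12 to 1.28), and these last intervals held 0. Among loops with a count of 4 or more, both ends lay at wild-type CTCF anchors in 52 of 63 wild-type RAD21 loops, 12 of 19 deleted-cell CTCF loops, 14 of 24 deleted-cell RAD21 loops, 7 of 23 wild-type ZNF143 loops, 88 of 362 at 0 h and 77 of 470 at 24 h.

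The antibodies shared few very long loops. Loops were matched between lists when both anchors, extended by 5 kb, overlapped by at least 1 bp. Of the 381 in wild-type CTCF, 104 were found in wild-type RAD21 (27.3%), and 104 of the 365 in wild-type RAD21 were found in wild-type CTCF (28.5%). Of the 314 in wild-type ZNF143, 8 were found in wild-type CTCF (2.55%) and 8 in wild-type RAD21, and in reverse 9 of the 381 (2.36%) and 9 of the 365 (2.47%) were found in wild-type ZNF143. Over loops of every length 46.4% of wild-type CTCF loops were found in wild-type RAD21 and 52.2% in reverse. Of all wild-type ZNF143 loops, 18.97% were found in wild-type CTCF and 16.3% in wild-type RAD21. In reverse, 12.8% of all wild-type CTCF loops and 12.3% of all wild-type RAD21 loops were found in wild-type ZNF143. Joined across the 7 lists, the members came to 7476 distinct loops, of which 6658 (89.1%) were in 1 list, 681 in 2, 104 in 3, 23 in 4, 7 in 5 and 3 in 6. There were 6618 in ZNF143 lists alone, 757 in CTCF or RAD21 lists alone and 101 in both kinds. Loops of other lengths were not joined in this way, so these numbers are not shown to be particular to the very long class. They also follow list size, since the CTCF-AID ZNF143 lists held 4206 and 3041 of the 8657 members.

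The loops listed most widely were few and were held by more than 1 antibody. Besides the chromosome 3 loop, chr12:32906618-32910016 to chr12:34174144-34175859 (1.27 Mb, 3 anchors skipped) was found in 6 lists, with counts of 8 in wild-type ZNF143, where it was the strongest member, 9 in wild-type CTCF, 15 in wild-type RAD21, 4 in deleted-cell RAD21, 3 at 0 h and 5 at 24 h, and it was not listed in deleted-cell CTCF. On chromosome 7, chr7:45961200-45963890 to chr7:47127802-47129373 was found in 6 lists, with summed counts of 11 and 10 in wild-type CTCF and RAD21, 4 and 8 in deleted cells, 8 at 0 h and 2 at 24 h. Both chr9:118353024-118356693 to chr9:119421767-119424627 and chr13:109612811-109615122 to chr13:110760578-110762249 were found in 5. The former had counts of 10 and 20 in wild-type CTCF and RAD21, 3 and 4 in deleted cells and 5 at 0 h. The latter had 11 and 12, 3 and 4, and 2. Neither was listed at 24 h.

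The first comparison set ZNF143-deleted against wild-type cells and asks whether very long CTCF and cohesin loops depend on ZNF143, as the series title implies. Both deleted-cell lists held fewer very long loops: 205 against 381 for CTCF, a ratio of 0.538 (0.452 to 0.639), and 145 against 365 for RAD21, a ratio of 0.397 (0.325 to 0.483). The number of loops under 1 Mb was less reduced, with ratios of 0.813 and 0.649, and the very long ratio over that of the shorter loops was 0.662 (0.555 to 0.787) for CTCF and 0.612 (0.501 to 0.745) for RAD21. With a minimum count of 3 this was 0.648 (0.452 to 0.918) for CTCF, an interval below 1, and 0.732 (0.507 to 1.04) for RAD21. With a minimum count of 4 it was 0.660 (0.370 to 1.13) and 0.965 (0.575 to 1.57), and with 5 it was 0.728 (0.319 to 1.52) and 1.09 (0.558 to 2.02). These last 4 intervals, which rest on 10 to 24 deleted-cell loops, hold 1, while the CTCF value itself stayed between 0.648 and 0.728. Against loops of 500 kb to 1 Mb, with ratios of 0.535 and 0.480, it was 1.01 (0.830 to 1.22) and 0.828 (0.666 to 1.03), and both intervals held 1. For RAD21 it was 1.13 (0.759 to 1.66) at a minimum count of 3 and 1.47 (0.834 to 2.51) at 4. These intervals held 1, as did those of CTCF at the same counts. With a minimum count of 5 it was 1.91 (0.770 to 4.40) for CTCF and 2.24 (1.06 to 4.54) for RAD21. Only this last interval lay above 1, with the very long loops the less reduced class. It rests on 15 deleted-cell loops, some of which had the near-equal anchor widths described below. By span at the listed minimum count, the CTCF ratio was 1.13 at 20 to 50 kb, 0.696 at 200 to 500 kb and between 0.442 and 0.590 in the 4 classes above 1 Mb. For RAD21 it was 0.796, 0.609 and between 0.326 and 0.426.

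These ratios rest on lists with unequal total counts. With each read pair of the wild-type list kept with the probability that makes the expected listed totals equal, the expected ratio for very long loops was 0.998 for CTCF and 0.938 for RAD21, and for loops under 1 Mb it was 1.28 and 1.24. At equal listed totals the number of very long loops in deleted cells was thus close to that in wild-type cells, while that of shorter loops was higher. At a minimum count of 3, 4, 5 and 10, the last 3 chosen after seeing the data, the ratio was 0.395, 0.328, 0.303 and 0.25 for CTCF and 0.360, 0.381, 0.366 and 0.214 for RAD21. Loops of 500 kb to 1 Mb had lower ratios at each of these counts, with 0.317, 0.228, 0.159 and 0.060 for CTCF and 0.319, 0.260, 0.164 and 0.0725 for RAD21.

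**Figure D4:**
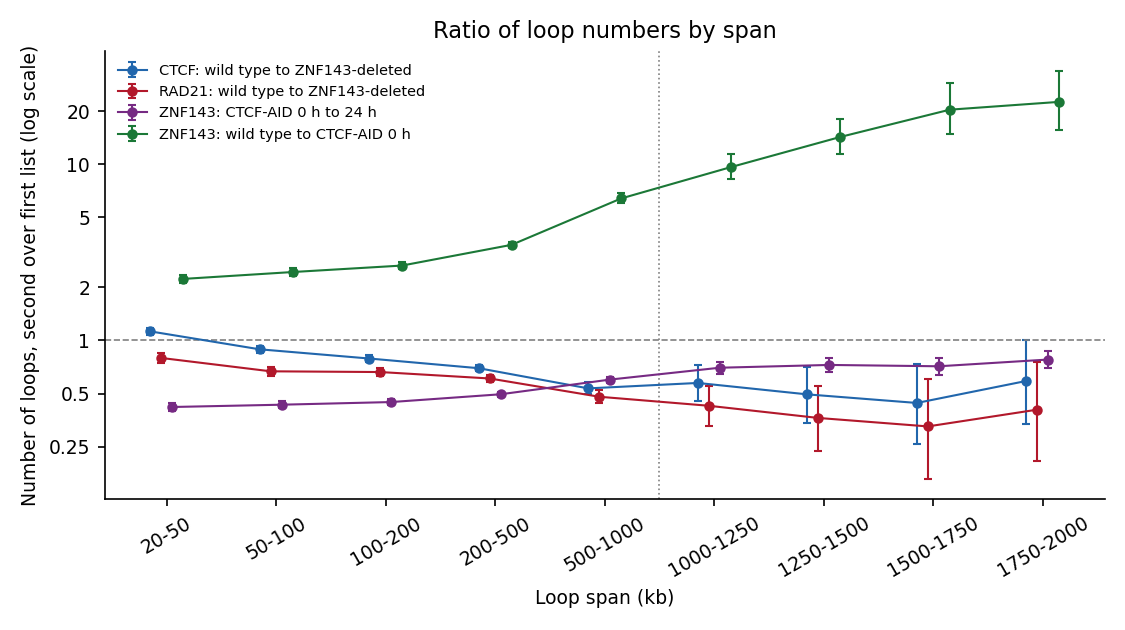
Number of loops in the second list of a pair divided by the number in the first (log axis), by loop span in kb, with 95% intervals from the exact binomial split. The dotted line marks 1 Mb and the dashed line a ratio of 1. The 2 ZNF143-deletion curves descend from 20 kb to 1 Mb and lie between 0.326 and 0.590 above it, the auxin curve climbs from 0.420 to 0.780, and the pair with no protein removed climbs from 2.23 to 22.6.

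Few individual very long loops were found again in deleted cells. Of the 381 wild-type CTCF loops, 44 were found (11.5%, 8.52 to 15.2), where 39.1% of wild-type CTCF loops of every length were found. Of the 365 wild-type RAD21 loops, 49 were found (13.4%, 10.1 to 17.4), where 34.1% of all were. Loops of 500 kb to 1 Mb were found in 19.6% and 21.8%, and the very long class differed from them by -8.03 points (-11.4 to -4.02) with the CTCF antibody and -8.37 points (-12.1 to -4.03) with the RAD21 antibody. The share found was lowest for loops with the lowest count. At a count of 2, 12 of 262 CTCF loops (4.58%) were found, against 10.8% of the shorter class (-6.18 points, -8.94 to -2.52), and 18 of 240 RAD21 loops (7.50%) against 11.4% (-3.90 points, -7.41 to 0.565). At a count of 3 or more the shares were 26.9% against 33.7% for CTCF (-6.78 points, -14.8 to 2.47) and 24.8% against 35.1% for RAD21 (-10.3 points, -17.9 to -1.39). At a count of 5 or more, 18 of 33 CTCF loops (54.5%) and 21 of 41 RAD21 loops (51.2%) were found, against 52.0% and 54.3% of the shorter class, with differences of 2.56 points (-15.2 to 19.5) and -3.06 points (-18.9 to 12.7). Against all loops under 1 Mb at a count of 5 or more, the very long class was found less often: the CTCF difference was -16.9 points (-33.6 to -1.27) and the RAD21 difference -16.3 points (-31.1 to -1.65). Of those with a count of 10 or more, 9 of 12 and 9 of 14 were found, beside 72.0% and 73.9% of loops of 500 kb to 1 Mb and 90.0% and 86.6% of loops under 1 Mb. Among found loops the deleted-cell count was lower than the wild-type count in 25 of 44 for CTCF and 27 of 49 for RAD21, equal in 9 and 9, and higher in 10 and 13, with a median ratio of 0.75 in both. The 12 and 18 found loops with a wild-type count of 2 could not be lower.

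**Figure D5:**
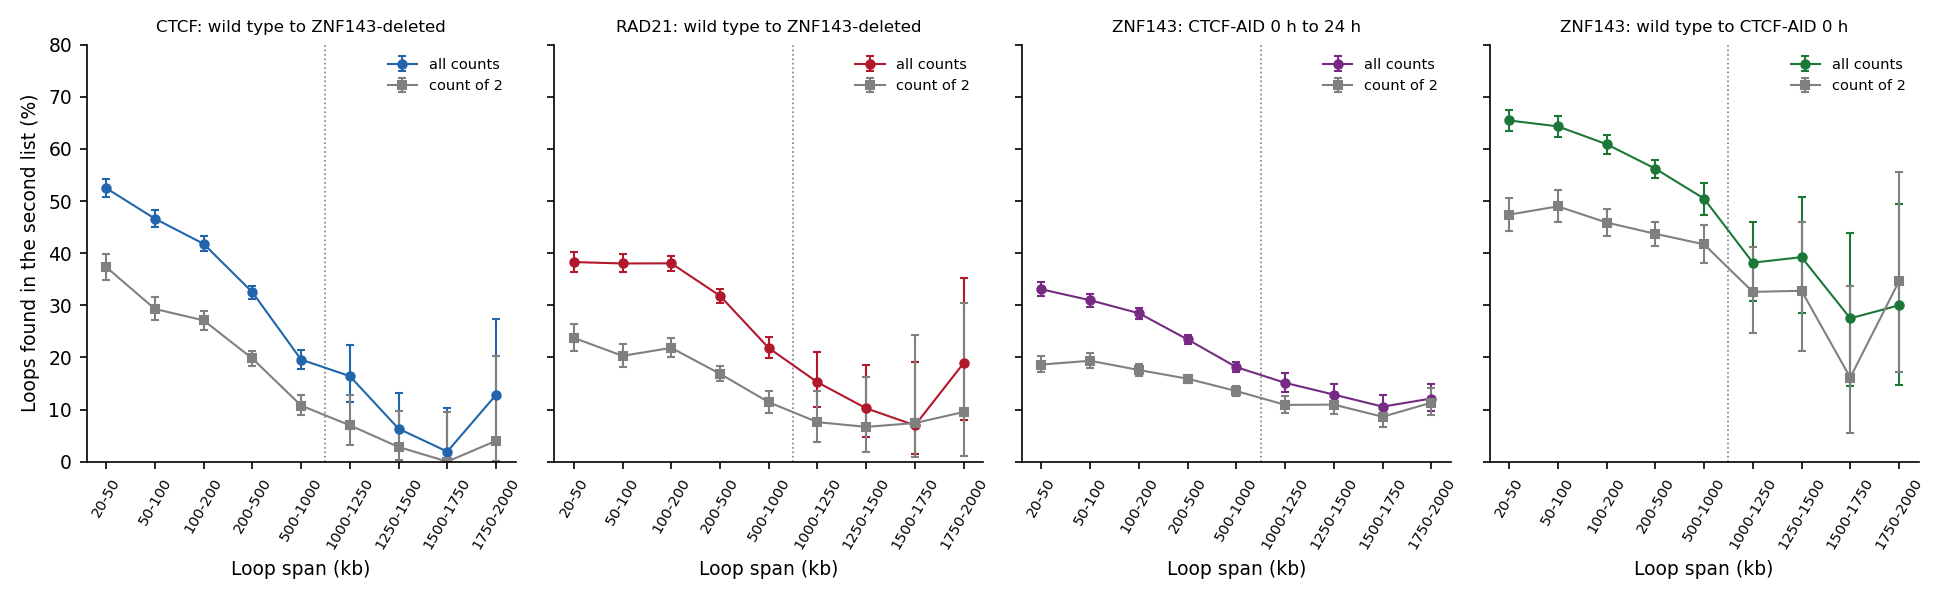
Percentage of the first list's loops found again in the second list of each pair, by loop span in kb, for all loops (colour) and for loops with a count of 2 (grey), with exact 95% intervals. The dotted line marks 1 Mb. In the 4 panels the share for all loops is lower in each class above 500 kb than in any class below it, and above 1 Mb the intervals are wide except from 0 h to 24 h of auxin.

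In reverse, 44 of the 205 very long deleted-cell CTCF loops were found in wild-type CTCF (21.5%, where 47.1% of all deleted-cell CTCF loops were) and 50 of the 145 deleted-cell RAD21 loops in wild-type RAD21 (34.5%, where 50.9% of all were). The remaining 161 and 95 were listed in deleted cells alone of the pair. Of the 337 lost CTCF loops, 129 (38.3%) still had both anchors at other loops of the deleted-cell list and 16.6% had neither. Of the 316 lost RAD21 loops, 94 (29.7%) had both and 27.2% neither. Both anchors were still listed for 46.3% and 37.2% of the lost CTCF and RAD21 loops of 500 kb to 1 Mb and for 42.5% and 33.3% of those under 1 Mb, so the very long class did not stand above the shorter ones in this. Both anchors of 70 of the 161 CTCF loops (43.5%) and 36 of the 95 RAD21 loops (37.9%) seen in deleted cells alone were already anchors in wild-type cells, beside 46.4% and 41.4% in the class of 500 kb to 1 Mb.

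Very long CTCF loops whose ends lay at wild-type ZNF143 anchors were not lost more often than those away from them. With 0, 1 and 2 ends at such anchors, 8.13%, 13.9% and 20.0% of the CTCF loops were found in deleted cells (17 of 209, 17 of 122 and 10 of 50), and 10.1%, 18.6% and 22.0% of the RAD21 loops (24 of 238, 16 of 86 and 9 of 41). The matching number ratios were 0.517, 0.533 and 0.640 for CTCF and 0.378, 0.430 and 0.439 for RAD21, with overlapping intervals. Loops under 1 Mb had the same order, with 29.7%, 35.7% and 54.1% found for CTCF. These groups were not split by loop count, and the share found rose with the count, as given above. Whether the order goes with the count was not tested.

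The strongest lost CTCF loop was chr1:59204860-59206506 to chr1:60224636-60226799 (1.02 Mb, 4 anchors skipped), with counts of 19 in wild-type CTCF and 22 in wild-type RAD21, no listing in deleted-cell CTCF and 3 in deleted-cell RAD21. The next was chr11:87063220-87064616 to chr11:88276872-88279078, with 12 and 9 in wild-type cells, no listing in deleted-cell CTCF and 2 in deleted-cell RAD21. Both loops lost from the CTCF list were thus still listed with RAD21 in the same cells. For RAD21 the strongest lost loop was chr11:41519741-41522010 to chr11:42545677-42546982, with a count of 12 (3 in wild-type CTCF) and no listing in either deleted-cell library.

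Against the general direction, chr3:123437201-123439070 to chr3:125402259-125404575, 1.97 Mb long and passing over 37 CTCF anchors, had higher counts in deleted cells: 36 against 10 for CTCF and 19 against 11 for RAD21. It was the strongest very long loop of deleted-cell CTCF and was not listed in any ZNF143 library. The strongest loops seen in deleted-cell CTCF but not in wild-type CTCF were chr2:130898335-130900406 to chr2:132287815-132289767 and chr13:20125677-20127898 to chr13:21842027-21844255, with a count of 6 each and no end at a wild-type CTCF anchor. For RAD21 they were chr7:75071393-75072834 to chr7:76255999-76257222 with a count of 10, which also had 2 at 0 h and 3 at 24 h, and chr5:175461121-175463290 to chr5:177234797-177236966 with 9.

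That last loop had 2 anchors of exactly equal width, 2170 bp each. Equal widths bear on what such a loop is, because reads from near-identical copies of 1 sequence can be placed at either copy, and no hg19 sequence was used here to compare the anchors. Widths within 5 bp of each other were found in 8 of the 145 very long deleted-cell RAD21 loops (5.52%, 2.41 to 10.6), 6 of 205 in deleted-cell CTCF (2.93%), 9 of 365 in wild-type RAD21 (2.47%), 8 of 381 in wild-type CTCF (2.10%) and 0.318% to 0.594% in the 3 ZNF143 lists, against 1.67%, 1.65%, 0.862% and 0.772% of the loops of 500 kb to 1 Mb and 0.561% to 0.707% of the loops under 500 kb in the 4 CTCF and RAD21 lists. Among loops of deleted-cell RAD21 that were not found in wild-type RAD21, they were 6 of the 16 with a count of 3 or more and 3 of the 4 with a count of 5 or more. A tolerance of 10 bp was looked at first and gave 10 of 145 and 8 of 205 for deleted cells and 10 of 365 and 11 of 381 for wild-type cells. Both tolerances were chosen after seeing the data, and the part of such loops in the deleted-cell values was not tested beyond leaving them out. Without the loops within 5 bp the number ratios were 0.534 for CTCF and 0.385 for RAD21.

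The second comparison followed very long ZNF143 loops through 24 h of auxin, which degrades tagged CTCF. Their number was 4206 at 0 h and 3041 at 24 h, a ratio of 0.723 (0.690 to 0.758), against 0.600 for loops of 500 kb to 1 Mb and 0.485 for loops under 1 Mb. Relative to those classes the very long loops were reduced less, by factors of 1.20 (1.13 to 1.28) and 1.49 (1.42 to 1.57). The direction itself depended on the count required. Very long loops with at least 3, 4, 5 and 10 counts numbered 455, 362, 105 and 14 at 0 h and 558, 470, 162 and 36 at 24 h, ratios of 1.23 (1.08 to 1.39), 1.30 (1.13 to 1.49), 1.54 (1.20 to 1.99) and 2.57 (1.35 to 5.16). Loops under 1 Mb had 0.654, 0.699, 0.820 and 1.09 at the same minimum counts, so the very long class lay above the shorter at each. At equal listed totals the expected ratio was 1.10 for very long loops and 0.659 for loops under 1 Mb. That expectation drops each count independently, whereas the CTCF-AID counts were mostly even, so it does not settle the direction. Dividing the CTCF-AID counts by 2 keeps the same loops as a minimum count of 4. Its ratio of 1.30 for very long loops is therefore not a further choice. Whether very long ZNF143 loops became fewer or more numerous is therefore set by how the lists are scaled and cut, while their higher share at 24 h held under each of these choices.

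The ratio of 24 h to 0 h numbers was higher for loops with fewer ends at wild-type CTCF anchors. Very long loops with both ends at wild-type CTCF anchors went from 1047 to 556 (ratio 0.531, 0.478 to 0.589), those with 1 end from 2017 to 1506 (0.747, 0.698 to 0.799) and those with none from 1142 to 979 (0.857, 0.786 to 0.935). The ratio for loops with no such end was 1.61 times that for loops with both (1.41 to 1.85), beside 1.83 for loops of 500 kb to 1 Mb and 1.75 for loops under 1 Mb. For loops with a count of 4 or more the numbers were 88 and 77 with both ends (0.875, 0.636 to 1.20) and 112 and 172 with none (1.54, 1.20 to 1.97). Very long loops that ZNF143 shared with the other antibodies were fewer at 24 h: 53 of the 381 wild-type CTCF loops were found at 0 h (13.9%) and 5 at 24 h (1.31%), and 53 (14.5%) and 6 (1.64%) of the 365 wild-type RAD21 loops. Loops of every length did likewise, with 24.7% and 6.88% of all wild-type CTCF loops and 23.6% and 6.46% of all wild-type RAD21 loops found at 0 h and 24 h. In reverse, 55 of the 4206 loops at 0 h (1.31%) and 4 of the 3041 at 24 h (0.132%) were found in wild-type CTCF, beside 11.98% and 6.10% of the loops of every length. Of the 314 wild-type ZNF143 loops, 114 were found at 0 h and 106 at 24 h (36.3% and 33.8%), beside 59.6% and 41.2% of wild-type ZNF143 loops of every length.

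Loop by loop, 553 of the 4206 very long loops at 0 h were found at 24 h (13.1%, 12.1 to 14.2), where 24.7% of all 0 h loops were. The class of 500 kb to 1 Mb had 18.1%, a difference of -4.99 points (-6.35 to -3.60). At a count of 2 it was 395 of 3751 (10.5%) against 13.5%, and at a count of 5 or more 57 of 105 (54.3%) against 53.0% (1.28 points, -9.55 to 11.9). Of the 553 found loops, 395 had a count of 2 at 0 h, the lowest any list holds, so their counts could not be lower at 24 h. The count was lower at 24 h in 84 of the other 158. Over all 553 it was higher in 189, equal in 280 and lower in 84, with a median ratio of 1. In reverse, 559 of the 3041 loops at 24 h were found at 0 h (18.4%, where 45.4% of all 24 h loops were, beside 29.7% for loops of 500 kb to 1 Mb). With a count of 10 or more it was 30 of 36 (83.3%), beside 85.3% for loops of 500 kb to 1 Mb and 92.6% for all 24 h loops. Of the 2482 not found at 0 h, 2170 (87.4%) joined anchors that were both already listed at 0 h, and of the 3653 lost loops 1270 (34.8%) still had both anchors at 24 h. These shares were 86.8% and 29.5% for loops of 500 kb to 1 Mb and 82.7% and 23.1% for loops under 1 Mb, so newly listed loops of every class mostly joined anchors listed at 0 h, when the list held 21128 anchors against 9324 at 24 h. Loops found at both times skipped a median of 17 CTCF anchors, lost loops 14 and newly listed loops 19. These medians are not scaled to the chromosome, and anchor-dense chromosome 19 held 44.8%, 19.6% and 30.3% of the 3 groups.

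Chromosome 19 behaved differently from the rest of the genome in this comparison. Its very long loops numbered 965 at 0 h and 1007 at 24 h (ratio 1.04, 0.954 to 1.14), whereas those of all other chromosomes numbered 3241 and 2034 (0.628, 0.593 to 0.664). The first ratio was 1.66 times the other (1.50 to 1.85). At a minimum count of 4 the ratios were 1.43 (1.15 to 1.78) and 1.21 (1.01 to 1.46), with overlapping intervals. In the pair with no protein removed, wild-type ZNF143 to 0 h, the chromosome 19 ratio was 0.522 times the other (0.408 to 0.671), so chromosome 19 also differed there, in the opposite direction. On chromosome 19, 248 of the 965 were found again (25.7%), against 305 of 3241 elsewhere (9.41%), a difference of 16.3 points (13.4 to 19.3). The same held for shorter loops there, with ratios of 0.697 on chromosome 19 and 0.434 elsewhere under 1 Mb, so this was not confined to the very long class. Of the loops with a count of 10 or more, 11 of 14 at 0 h and 18 of 36 at 24 h were on chromosome 19.

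The strongest loop found at both times was chr19:36704648-36707254 to chr19:37861066-37862964 (1.16 Mb, 2 anchors skipped, no end at a wild-type CTCF anchor), with counts of 5 in wild-type ZNF143, 18 at 0 h and 24 at 24 h. Another on the same chromosome, chr19:57899648-57902134 to chr19:58918912-58920953, had 2, 12 and 13. On chromosome 8, chr8:66556559-66558001 to chr8:67576863-67580390 (1.02 Mb, 12 anchors skipped) had 7, 6 and 28. These loops were listed in all 3 ZNF143 libraries and in none of the 4 CTCF and RAD21 libraries. Next to the first of them, chr19:36629838-36631562 to chr19:37861066-37862964 had a count of 12 at 0 h and was not listed at 24 h or in wild-type cells. The strongest loops listed at 24 h and not at 0 h were chr7:112089260-112092027 to chr7:113349980-113352378 with a count of 15 and chr11:66138121-66139971 to chr11:67195110-67196912 with 14. Both had a count of 2 in wild-type ZNF143, so the 0 h library was the exception for them. Likewise chr12:66523781-66526448 to chr12:67661870-67663575 had 6 in wild-type ZNF143, no listing at 0 h and 6 at 24 h.

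The last pair, wild-type ZNF143 against CTCF-AID ZNF143 at 0 h, had no protein removed by auxin and shows how far 2 ZNF143 lists differ across cell lines, libraries and list layouts, which cannot be told apart. It shares the 0 h list with the auxin comparison. The number of very long loops was 314 and 4206, a ratio of 13.4 (11.9 to 15.1), against 6.39 for loops of 500 kb to 1 Mb and 3.10 for loops under 1 Mb. The ratio climbed with span from 2.23 at 20 to 50 kb to 22.6 at 1750 to 2000 kb. At equal listed totals the expected ratio was 3.46 for very long loops and 1.19 for loops under 1 Mb. That expectation drops each count of the 0 h list independently, which its mostly even counts do not bear out. With the CTCF-AID counts divided by 2 the ratio was 1.15 for very long loops. With the counts as deposited, the difference with no protein removed was thus larger, as a ratio, than that in either removal comparison.

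Of the 314 wild-type loops, 114 were found at 0 h (36.3%, 31.0 to 41.9, where 59.6% of all wild-type ZNF143 loops were), and 125 of the 4206 in reverse (2.97%, where 19.4% of all 0 h loops were). Loops of 500 kb to 1 Mb were found in 50.5%, a difference of -14.2 points (-20.1 to -7.94). Over all counts, very long loops were thus found again less often than this class in all 4 pairs, with and without a removed protein. At a count of 5 or more, 6 of 11 wild-type ZNF143 loops were found at 0 h (54.5%), against 85.2% (-30.6 points, -57.9 to -4.72). In the pairs with a removed protein the intervals at that count held 0. Of the 200 wild-type loops not found at 0 h, 158 (79.0%) had both anchors in the 0 h list, beside 72.7% in the class of 500 kb to 1 Mb. After the chromosome 12 loop above, the strongest of them was chr3:3220246-3222318 to chr3:4312846-4314533, with a count of 5 in wild-type ZNF143, 2 in wild-type CTCF and 0 skipped anchors.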

How the data were processed

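Each library came as 1 loop list made by the authors, with a pair of anchors and a whole-number count on each line. The deposited counts were taken as supporting read pairs, not scaled to a common depth. The submitters' processing notes name HiC-Pro and hg19. The loop caller, filters and versions are not given in the sources used here. No hg19 sequence or annotation was used here, so anchors carry no gene names or sequences. Groups came from the sample titles.

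Very long loops, lists and classes were chosen with earlier results of these data known. Shares carry exact (Clopper-Pearson) 95% intervals, number ratios exact binomial ones, differences of shares Newcombe ones and ratios of ratios exact conditional ones. Anchors of a list were merged at 1 bp overlap. Named loops are, per list or pair, the 2 strongest, the 2 strongest found again, lost and newly listed, the longest, those skipping the most and fewest anchors, the leading anchor, and the 5 most widely listed. A few neighbours of the leading anchors were chosen after their values were seen. Python 3.11.15, NumPy 2.4.6, SciPy 1.17.1 and Matplotlib 3.10.9 were used, and the scripts were tested on simulated data.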

Additional observations from a re-analysis of the deposited data

How the results depend on the processing

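There were 35 results and 149 alternatives, of which 58 lay inside the main value's interval, 88 moved outside it and 3 reversed. No paired analysis was possible because each group held 1 library. Causes were not tested, library depths are unknown, and most very long loops had a count of 2. Values follow the order wild-type ZNF143, CTCF, RAD21, deleted-cell CTCF, RAD21, CTCF-AID 0 h, 24 h unless named. At a minimum count of 3 the share of very long loops was 1.11, 1.24, 1.44, 0.805, 1.06, 3.63 and 6.60%, at 1.5 Mb it was 0.584, 0.471, 0.477, 0.295, 0.268, 3.69 and 5.39%, and with CTCF-AID counts divided by 2 it was 3.44 and 6.20%. The auxin number ratio reversed to 1.23 at a minimum count of 3, 1.30 with counts divided by 2 and 1.10 at equal listed totals, and was 0.628 without chromosome 19. A minimum count of 3 gave a CTCF ratio of 0.395, and equal totals gave 0.998 for CTCF and 0.938 for RAD21. From wild-type to CTCF-AID ZNF143 at 0 h the ratio was 7.11 at a minimum count of 3, 21.3 at 1.5 Mb, 1.15 with counts divided by 2, 16.2 without chromosome 19 and 3.46 at equal totals. The equal-totals values of pairs with a CTCF-AID list treat counts as independent, which mostly even counts do not bear out. The share found again was 16.8% (CTCF) and 20.9% (auxin) at a minimum count of 3. At 1.5 Mb it was 6.59% (CTCF), 11.3% (auxin) and 28.6% (wild-type to 0 h), and at a count of 2 alone 4.58% (CTCF), 7.50% (RAD21), 10.5% (auxin) and 30.8% (wild-type to 0 h). Under auxin it was 11.2, 16.1 and 23.2% with anchors extended by 0, 10 and 25 kb and 9.41% without chromosome 19, and from wild-type to 0 h it was 50.3% at 25 kb. The median number skipped at a minimum count of 3 was 4.5 (wild-type ZNF143), 2 (wild-type CTCF), 6 (0 h) and 11 (24 h). At 1.5 Mb it was 19 (wild-type ZNF143), 9 and 8 (deleted cells), 20 and 25 (CTCF-AID), with CTCF anchors of loops with a count of 3 or more 7, 3, 2, 4, 3, 9 and 12, and with RAD21 anchors 13 and 16 (CTCF-AID). The share with a shared anchor was 51.6, 34.5, 36.0, 11.1 (deleted-cell RAD21), 61.1 and 75.1% at a minimum count of 3, 32.9, 20.9, 18.8, 28.3, 6.90, 54.4 and 71.3% at 1.5 Mb, and 75.8% at 0 h with anchors merged within 5 kb. Both ends lay at wild-type CTCF anchors, at a minimum count of 3, in 12.5% (wild-type ZNF143), 42.2% (deleted-cell RAD21), 16.0% (0 h) and 10.4% (24 h), and at 1.5 Mb in 34.5% (deleted-cell RAD21) and 16.7% (24 h). With extensions of 0, 10 and 25 kb the share was 11.5, 28.7 and 45.2% for wild-type ZNF143, 16.4, 32.9 and 49.0% at 0 h and 8.39, 27.2 and 46.1% at 24 h, and at 25 kb 64.4% for wild-type RAD21 and 63.9% for deleted-cell CTCF.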
